A study of Mus musculus with 6 samples.

Results

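The genes described here make, take up, store or export cholesterol in hepatocytes, the metabolic cells of the liver. They are 30 mouse genes chosen by symbol, all found among the 32061 genes of the count table and all among the 12949 genes with enough counts to be tested. The hepatocytes were freed from the livers of mice 10 to 12 weeks old by collagenase, passed through a density gradient, and their poly-A RNA was sequenced. The 3 samples called senescent came from AhCre+Mdm2fl/fl mice, which carried the AhCre transgene and a conditional allele of Mdm2 on both chromosomes. The 3 controls, called healthy, came from AhCre- mice whose Mdm2 alleles the sources used here do not state. All 6 samples came from mice injected with β-naphthoflavone in corn oil at 20 mg/kg and taken after 48 h. β-naphthoflavone is a ligand of the aryl hydrocarbon receptor that switches on the promoter driving AhCre, so the controls carry the ligand but not the recombinase. Presence of Cre and loss of Mdm2 cannot be told apart in this design. Mdm2 encodes the ubiquitin ligase that keeps p53 low, and the comparison asks which transcripts differ once it is lost from hepatocytes. The labels do not say that the samples are from different animals, and p-values therefore speak of the spread over libraries alone, which may be technical.

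Cholesterol is built from acetyl-CoA through mevalonate, farnesyl diphosphate, squalene and lanosterol. The liver is a main site of this synthesis, of the uptake of lipoprotein cholesterol and of its loss into bile. Transcription of the pathway is governed by SREBP2, the product of Srebf2, a membrane-bound factor that the escort protein SCAP carries to the Golgi for cleavage when sterols are low. The INSIG proteins hold SCAP back when sterols are high. The export genes answer instead to LXR, a nuclear receptor activated by oxysterols.

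The labels were first checked on genes outside the pathway. Mdm2, whose count spans the whole gene and does not test the deletion, had 19.0, 22.7 and 22.0 CPM in healthy replicates 1, 2 and 3 and 465, 463 and 501 CPM in the senescent ones. CPM are counts per 1000000 of library size after TMM scaling, a correction for differences in composition. Cdkn1a, the p53 target that encodes the cell cycle inhibitor p21, had 21.3, 31.1 and 54.3 CPM in the healthy and 653, 773 and 724 CPM in the senescent libraries. The libraries held 28799392 to 33267299 counts. Transcripts of 12 genes that define hepatocytes, among them Alb, Ttr and Cps1, were abundant in every library but lower in senescent ones. They summed to 136110.0 to 152870.0 CPM in healthy and 76356 to 91860.0 CPM in senescent libraries. Of those 12 genes 9 were called lower in senescent cells and 0 higher, with a median log2 fold change of -0.90. Over all tested genes 20.7% were lower. Among the 3 markers that did not pass was Hnf4a, named after its value was seen, at 0.02 ± 0.19 (edgeR adjusted p = 0.95). The 9 became 5 without senescent replicate 3 or at adjusted p under 0.01, 6 with total library size, without senescent replicate 1 or without senescent replicate 2, and 2 when the 50 most abundant genes, markers among them, were removed. All log2 fold changes here are senescent minus healthy, ± SE.

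Sequence before the transcription start was examined because most of the genes moved together. RefSeq windows on GRCm38.p6 were found for 24 of the 30 genes, and the 250 bases before each start were searched on both strands. The stretches below come from 7 genes that fell and from Insig2, the single gene that rose. These genes were picked among those with a match, each at its first listed start. Every stretch is cut a few bases beyond its outermost marked letters, so each holds a match by construction. The stretches run 5′ to 3′ on the gene's own strand. Capitals mark the CCAAT box, written ATTGG where it lies on the other strand, and the core TCACNCCA of the sterol regulatory element to which SREBP2 binds. The other starts of Insig2 had no CCAAT box.
Hmgcs1: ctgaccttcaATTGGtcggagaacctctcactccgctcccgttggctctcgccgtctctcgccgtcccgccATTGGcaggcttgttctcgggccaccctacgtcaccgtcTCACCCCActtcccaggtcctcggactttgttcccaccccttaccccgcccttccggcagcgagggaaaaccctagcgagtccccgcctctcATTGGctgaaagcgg
Srebf2: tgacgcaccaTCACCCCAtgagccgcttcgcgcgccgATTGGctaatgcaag
Mvd: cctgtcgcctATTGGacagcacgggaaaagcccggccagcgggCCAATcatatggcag
Ebp: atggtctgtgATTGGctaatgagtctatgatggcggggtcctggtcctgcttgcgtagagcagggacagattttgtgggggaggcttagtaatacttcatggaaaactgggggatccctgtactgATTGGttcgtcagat
Lss: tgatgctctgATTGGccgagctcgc
Sc5d: ccggctgctgATTGGccggctgcct
Insig1: ccctcctcccATTGGctccggcggc
Insig2: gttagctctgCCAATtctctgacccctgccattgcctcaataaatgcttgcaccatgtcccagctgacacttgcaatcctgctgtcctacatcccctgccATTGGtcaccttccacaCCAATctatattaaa
Their places are chr13:119690104-119690320 (+) for Hmgcs1, chr15:82147097-82147148 (+) for Srebf2, chr8:122443435-122443492 (-) for Mvd and chrX:8193553-8193692 (-) for Ebp. Those of Lss, Sc5d, Insig1 and Insig2 are chr10:76531533-76531557 (+), chr9:42264310-42264334 (-), chr5:28071186-28071210 (+) and chr1:121332604-121332735 (-). No exon of GENCODE M21 overlaps them, and that of Mvd lies within the annotated span of Gm20388. The Hmgcs1 stretch holds the core once, TCACCCCA at 137 bases before the start, between CCAAT boxes, and the Srebf2 stretch holds the same letters beside a single CCAAT box.

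A CCAAT box, bound by NF-Y, a factor known to work beside SREBP, was present before at least 1 start of 20 of the 24 genes (83.3%). Among the 9855 tested genes with a window, 41.1% had one. Of the 16 genes with a window that fell, 15 had a CCAAT box, Acat2 being the exception, and so did Insig2. Among those with a window that did not pass, Ggps1, Hsd17b7, Mylip and Abcg8 had one, and Scap, Abca1 and Abcg5 did not. The GC box GGGCGG was present for 20 of the 24 genes (83.3%) and for 62% of the tested ones. A longer sterol regulatory element, TCACNCCA with A before it and C after it, had 0 matches among the 24 genes and a match in 0.183% of tested genes. The core TCACNCCA, which lies inside the longer form and was added after that search, was found for 3 genes, Hmgcs1, Srebf2 and Msmo1 (12.5%, against 4.01% of tested genes). The direct repeat AGGTCA, 4 free bases, AGGTCA, a form of LXR site, had 0 matches among the 24 genes. It had a match in 0% of tested genes and in 0.0152% of all windows of that length, so its absence does not set the 24 apart. These matches describe letters in a short window, and elements farther off or of other spelling were not searched.

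Most of the pathway was lower in senescent hepatocytes. In edgeR's quasi-likelihood test, with p-values adjusted by Benjamini-Hochberg over all 12949 genes and called under 0.05, 21 of the 30 genes fell, Insig2 rose and 8 did not pass. Over all tested genes 20.7% were called lower and 20.4% higher, 41.1% in all. The median log2 fold change of the 30 genes was -0.96, against 0.01 over all tested genes. The 12 hepatocyte markers above fell to a like extent, with 9 called lower and a median of -0.90. A difference between these markers and the 30 genes was not tested. All 3 senescent libraries lay below all 3 healthy ones for the 21 genes that fell, as for 27.2% of all tested genes, and above them for Insig2 alone, as for 26.8%. In either direction the groups did not overlap for 22 of the 30 genes and for 54% of all tested genes. The 19 enzymes summed to 3543, 4026 and 2992 CPM in healthy replicates 1, 2 and 3 and to 1474, 1529.8 and 1464 CPM in the senescent ones, a 2.36-fold difference of the means. Fewer cells of a type and less RNA per cell cannot be told apart in such bulk samples.

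**Figure D1:**
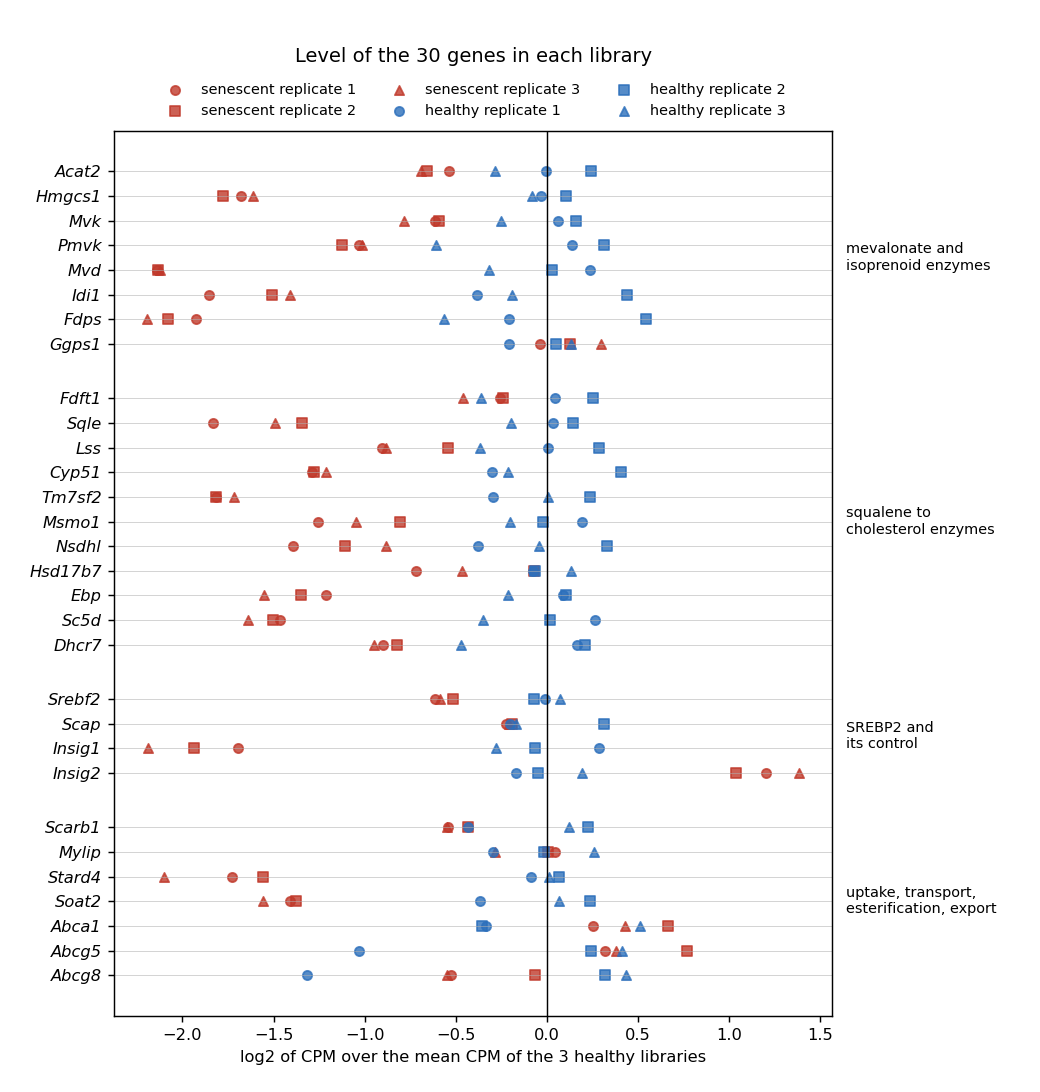
Each point is 1 gene in 1 library: the horizontal axis is the log2 of its CPM over the mean of the 3 healthy libraries, colour gives the group and marker shape the replicate number. The senescent libraries lie to the left of the healthy ones for 21 genes and to the right for Insig2, and Mvd and Fdps lie about 2 log2 units below the healthy mean.

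Some markers of other liver cells rose while most of the pathway fell. Over all tested genes 20.4% were called higher. Of 15 macrophage markers 4 rose and 0 fell, with sums of 107 to 287 CPM in healthy and 271 to 533 CPM in senescent libraries. That 4 was 13 with total library size, 10 with no filter, 9 with DESeq2 and 7 with limma-voom. It was 1 at adjusted p under 0.01, and 1 without senescent replicate 3, 9 without senescent replicate 2 and 7 without healthy replicate 2. Of 13 stellate cell markers 12 were tested and 7 rose, with sums of 16.7 to 28.8 and 46.0 to 64.7 CPM. The 7 became 3 without senescent replicate 3 and 2 at adjusted p under 0.01. Of 11 endothelial markers 1 rose, or 5 with total library size and 2 without healthy replicate 2, with sums of 117 to 151 and 135 to 173 CPM. Of 9 cholangiocyte markers 6 were tested, 3 rose and 1 fell, with sums of 15.7 to 24.0 and 20.5 to 27.8 CPM. Without single libraries 2 to 5 of the cholangiocyte markers rose, 5 without healthy replicate 2, and 0 to 2 fell, 0 without healthy replicate 1, healthy replicate 2, senescent replicate 2 or senescent replicate 3 and 2 without senescent replicate 1. Clec4f, which marks the resident macrophages of the liver, was at 43.0 ± 19.8 CPM in the healthy and 74.7 ± 24.9 CPM in senescent libraries (SD, n = 3 per group), a difference that did not pass, with overlapping groups (edgeR adjusted p = 0.12). Krt19 of bile duct cells was called higher, at 0.0685 ± 0.0674 and 0.746 ± 0.0623 CPM (edgeR adjusted p = 0.0034). Its healthy mean lay below the level of 3 counts, 0.101 to 0.117 CPM in the healthy libraries. The contractile stellate marker Acta2 had 0 counts in the 3 healthy libraries and 2, 1 and 0 in the senescent ones. The part of these cells in the fall of the cholesterol genes was not tested.

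The balance of calls depended on scaling. When total library size replaced TMM, the median of all tested genes moved from 0.01 to 0.33, 1285 genes fell and 4861 rose, and the median of the 30 genes was -0.65. On that scale 16 of the 30 genes fell and 2 rose. The calls of Acat2, Mvk, Lss, Srebf2 and Scarb1 were lost (0.051 to 0.36, edgeR adjusted p) and Abca1 was called higher. Changes below are relative to TMM.

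**Figure D2:**
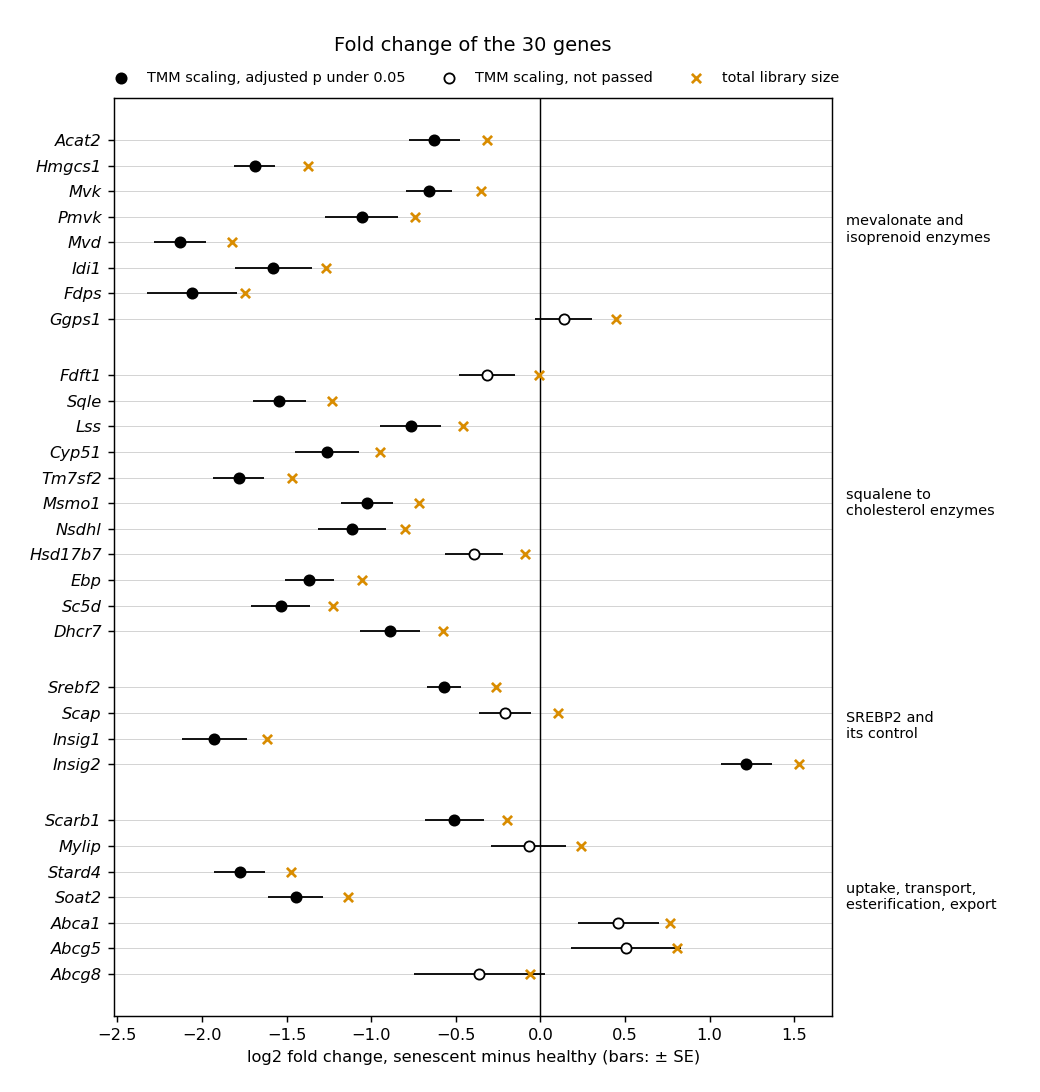
Circles give each gene's log2 fold change, senescent minus healthy, with TMM scaling and bars of ± SE; filled circles passed the edgeR test and crosses give the value with total library size. The crosses sit to the right of the circles for every gene, and the 5 genes whose call was lost, Acat2, Mvk, Lss, Srebf2 and Scarb1, are among those with small falls.

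Of the 8 genes of mevalonate and isoprenoid synthesis 7 fell and 1, Ggps1, did not pass, and the median log2 fold change of the 8 was -1.32. Hmgcs1 (ENSMUSG00000093930; GRCm38 chromosome 13, 119690379 to 119708260), the cytosolic synthase that makes HMG-CoA, had 470.4, 518 and 454 CPM in healthy replicates 1, 2 and 3 and 150.0, 140.2 and 157 CPM in senescent ones. The healthy values stood far above the senescent ones, a 3.22-fold difference of the means, and its log2 fold change was -1.69 ± 0.12 (edgeR adjusted p = 2.8e-05). Mvd (ENSMUSG00000006517; GRCm38 chromosome 8, 122433601 to 122443422), which makes isopentenyl diphosphate by decarboxylation, had 45.1, 39.1 and 30.7 CPM in the healthy libraries. Its senescent values of 8.70, 8.71 and 8.77 CPM were nearly the same in each library, and the log2 fold change was -2.13 ± 0.15 (edgeR adjusted p = 2.8e-05), the largest fall among the 30 genes. Fdps, the farnesyl diphosphate synthase gene, had 52.2, 88.1 and 40.9 CPM in healthy and 15.9, 14.3 and 13.2 CPM in senescent libraries. Its healthy values spread widely, with replicate 2 highest, yet the groups stood apart and the log2 fold change was -2.06 ± 0.26 (edgeR adjusted p = 6.1e-04). In GENCODE M21 26.7% of the exonic bases of Fdps also belong to Gm43738 on the same strand, and reads there cannot be given to Fdps alone. Gm48342 and Gm48574 overlap 12.1% of Hmgcs1 and 9.22% of Idi1 on the other strand.

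The other 4 genes of the group that fell are given by their group means. Idi1, whose isomerase makes dimethylallyl diphosphate, fell from 264 ± 83.3 to 88.4 ± 13.7 CPM (SD, n = 3 per group), 2.99-fold lower. Pmvk, the kinase that makes mevalonate diphosphate, fell from 126 ± 38.7 to 60.8 ± 2.48 CPM, and Mvk, the kinase before it, from 26.3 ± 3.79 to 16.6 ± 1.18 CPM. Acat2, the cytosolic thiolase that joins 2 acetyl-CoA, fell from 259.6 ± 46.6 to 168 ± 9.23 CPM, a fall whose call was lost without senescent replicate 2 or 3 (0.051 and 0.059, edgeR adjusted p). Acat3 is a close paralog of it, and how the counting split reads shared between them is uncertain. The 4 falls had edgeR adjusted p of 0.0011 to 0.011. Ggps1 makes geranylgeranyl diphosphate, the branch that leaves sterol synthesis for protein prenylation. It had 5.09, 6.07 and 6.43 CPM in healthy and 5.72, 6.41 and 7.21 CPM in senescent libraries. The groups overlapped, with a log2 fold change of 0.14 ± 0.17 (edgeR adjusted p = 0.54).

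Of the 11 enzymes from squalene to cholesterol 9 fell and 2, Fdft1 and Hsd17b7, did not pass, with a median log2 fold change of -1.11 over the 11. Tm7sf2, a sterol C14 reductase gene, had 178, 258 and 220.0 CPM in healthy replicates 1, 2 and 3 and 62.1, 62.02 and 66.5 CPM in senescent ones. The senescent values were close together and far below the lowest healthy one, with a log2 fold change of -1.78 ± 0.15 (edgeR adjusted p = 6.7e-05). In GENCODE M21 12.1% of its exonic bases also belong to Vps51 on the same strand. Sqle, whose epoxidase is a rate-limiting step after squalene, had 148, 159.5 and 126 CPM in healthy and 40.5, 56.9 and 51.2 CPM in senescent libraries. Every senescent library was below every healthy one, and the log2 fold change was -1.54 ± 0.16 (edgeR adjusted p = 1.7e-04). Ebp, the sterol isomerase named for binding emopamil, had 307, 311 and 249.5 CPM against 125, 113 and 98.5 CPM. Its groups also stood apart, with a log2 fold change of -1.36 ± 0.14 (edgeR adjusted p = 2.1e-04).

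Sc5d, the lathosterol desaturase gene, fell from 672 ± 141 to 232 ± 14.7 CPM, or 2.90-fold. Cyp51, the lanosterol demethylase gene, fell from 253 ± 71.9 to 106 ± 3.08 CPM, or 2.39-fold. The C4 demethylation genes Nsdhl and Msmo1 fell 2.16-fold and 2.04-fold, from 102 ± 25.05 to 47.2 ± 8.24 CPM and from 133 ± 18.2 to 65.2 ± 10.1 CPM. Dhcr7, which encodes the last reductase of the Kandutsch-Russell route, fell from 132 ± 31.9 to 71.1 ± 3.14 CPM. Lss, the lanosterol synthase gene, fell from 97.8 ± 21.7 to 57.5 ± 8.43 CPM, a call that was lost without senescent replicate 3 (edgeR adjusted p = 0.055). These 6 falls had edgeR adjusted p of 3.1e-04 to 0.011. None of the 11 genes had a positive log2 fold change, with TMM or with total library size. On the latter scale their median was -0.80, and Fdft1 and Hsd17b7 passed on neither.

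The 2 exceptions of this stretch were small differences within overlapping groups. Fdft1, the squalene synthase gene at the entry to the sterol branch, had 175, 202 and 132 CPM in healthy and 142, 143 and 123 CPM in senescent libraries. Healthy replicate 3 lay among the senescent values, the log2 fold change was -0.32 ± 0.16 (edgeR adjusted p = 0.16), and without that library it was called lower at -0.47 (edgeR adjusted p = 0.023). Fdft1 shares 18.3% of its exonic bases with Ctsb, a gene on the other strand, and the sources used here give no strand setting for the counting. Hsd17b7, a sterol ketoreductase gene, had 44.9, 45.3 and 52.0 CPM against 28.8, 45.2 and 34.4 CPM. Senescent replicate 2 reached the healthy level, the log2 fold change was -0.39 ± 0.17 (edgeR adjusted p = 0.096), and without that library the gene was called lower at -0.55 (edgeR adjusted p = 0.031).

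The genes that control SREBP2 did not move as a block: Srebf2 and Insig1 fell, Insig2 rose and Scap did not pass. Srebf2 had 81.3, 77.9 and 86.0 CPM in healthy and 53.5, 57.2 and 54.4 CPM in senescent libraries. The groups stood apart by a modest margin, with a log2 fold change of -0.57 ± 0.10 (edgeR adjusted p = 0.003). Scap had 154, 220.0 and 157 CPM against 151, 155 and 153 CPM. Healthy replicate 2 was the highest, replicate 3 lay just above the senescent range and replicate 1 within it, and the log2 fold change was -0.21 ± 0.15 (edgeR adjusted p = 0.3), or 0.10 with total library size. Scap shares 13.2% of its exonic bases with 5830462I19Rik on the other strand.

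The pair of INSIG genes went in opposite directions. Insig1 (ENSMUSG00000045294; GRCm38 chromosome 5, 28071363 to 28078662), itself a known SREBP target, had 646, 506 and 437 CPM in healthy replicates 1, 2 and 3 and 164, 138 and 116 CPM in senescent ones. Each healthy value was far above each senescent one, and the log2 fold change was -1.93 ± 0.19 (edgeR adjusted p = 1.6e-04). Insig2 (ENSMUSG00000003721; GRCm38 chromosome 1, 121304353 to 121332589), known in liver for a transcript that insulin represses, had 198, 215 and 255 CPM in healthy and 514, 457 and 582 CPM in senescent libraries. All 3 senescent values were above all 3 healthy ones, with a log2 fold change of 1.22 ± 0.15 (edgeR adjusted p = 5.1e-04). The counts are per gene and do not tell the 3 RefSeq starts of Insig2 apart. A ratio of counts within a library does not depend on scaling. Insig1 over Insig2 was 3.26, 2.35 and 1.71 in healthy replicates 1, 2 and 3 and 0.318, 0.302 and 0.1998 in senescent ones, so Insig1 had more counts in every healthy library and Insig2 in every senescent one. The ratio differed 8.81-fold between the groups (two-sided exact permutation p = 0.1, the smallest that 3 against 3 allows). Each gene alone already separated the groups, in opposite directions, so this p could take no other value and adds no support.

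**Figure D3:**
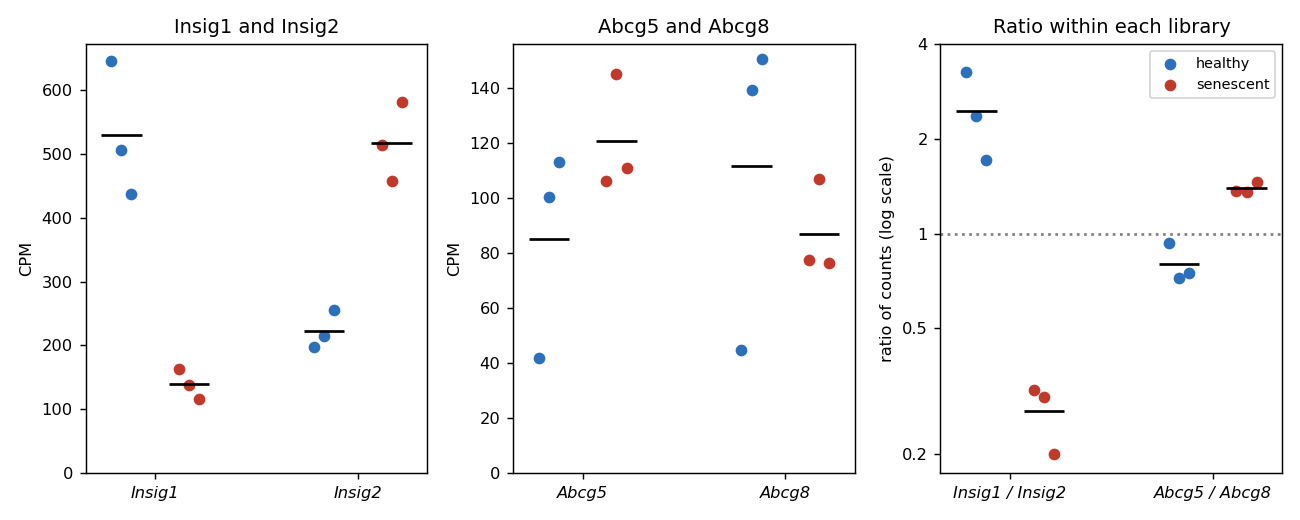
The left and middle panels give CPM, and the right panel the ratio of counts within each library on a log scale; each point is 1 library, coloured by group, and bars are group means. The Insig1 to Insig2 ratio is above 1 in the 3 healthy and below 1 in the 3 senescent libraries, and the Abcg5 to Abcg8 ratio is the reverse.

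Of the 7 genes of uptake, transport, esterification and export 3 fell and 4 did not pass, and their median log2 fold change was -0.36. Stard4, a cytosolic sterol carrier gene known as an SREBP2 target, had 97.9, 109 and 105 CPM in healthy and 31.4, 35.3 and 24.3 CPM in senescent libraries. The healthy values were close together and all above the senescent ones, 3.43-fold in the means, with a log2 fold change of -1.78 ± 0.15 (edgeR adjusted p = 7.0e-05). Soat2, the acyltransferase that esterifies cholesterol in hepatocytes, had 36.5, 55.5 and 49.4 CPM against 17.7, 18.1 and 16.0 CPM. Its groups stood apart as well, with a log2 fold change of -1.45 ± 0.16 (edgeR adjusted p = 3.0e-04). Scarb1, the receptor for high-density lipoprotein, had 159.6, 253 and 235 CPM in healthy and 148, 159.6 and 147 CPM in senescent libraries. Healthy replicate 1 lay at the level of the highest senescent library, and the log2 fold change of -0.51 ± 0.17 passed narrowly (edgeR adjusted p = 0.046). That call was lost with limma-voom (0.054, adjusted p) and when any library but healthy replicate 1 was left out (0.098 to 0.17, edgeR adjusted p). Mylip, whose ubiquitin ligase marks lipoprotein receptors for degradation, was scarce, with 2.53, 3.07 and 3.71 CPM and 3.21, 3.12 and 2.55 CPM. Its groups overlapped, with a log2 fold change of -0.07 ± 0.22 (edgeR adjusted p = 0.82).

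None of the 3 export genes passed. Abca1, the transporter that loads cholesterol onto apolipoprotein A-I, had 86.4, 85.1 and 156 CPM in healthy replicates 1, 2 and 3 and 130.1, 173 and 147 CPM in senescent ones. Healthy replicate 3 was as high as the senescent libraries and the other 2 were lower, with a log2 fold change of 0.46 ± 0.24 (edgeR adjusted p = 0.16). Without that library Abca1 was called higher at 0.80 (edgeR adjusted p = 0.0046). Abca1 is also expressed by macrophages, and that library had the lowest summed macrophage markers of the 6, 107 CPM. Whether they bear on this value was not tested.

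Abcg5 and Abcg8 encode the pair of proteins that form the transporter that moves sterols into bile. They lie head to head (ENSMUSG00000040505; GRCm38 chromosome 17, 84658234 to 84683011, and ENSMUSG00000024254; GRCm38 chromosome 17, 84676302 to 84700333), and the first RefSeq starts are 109 bases apart. Abcg5 had 41.7, 101 and 113 CPM in healthy and 106, 145 and 111 CPM in senescent libraries, with a log2 fold change of 0.50 ± 0.33 (edgeR adjusted p = 0.25). Abcg8 had 44.7, 139 and 151 CPM against 77.5, 107 and 76.4 CPM, with a log2 fold change of -0.36 ± 0.39 (edgeR adjusted p = 0.49). Healthy replicate 1 was far below the other healthy libraries for both genes, and without it Abcg8 was called lower at -0.74 (edgeR adjusted p = 0.012) while Abcg5 was not called, at 0.17 (0.45).

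The same library stood apart for Cyp7a1, the gene of the first enzyme of bile acid synthesis, with 154, 15.5 and 23.3 CPM in healthy replicates 1, 2 and 3, and for the clock gene Nr1d1, with 2.29, 61.8 and 70.8 CPM. Their part in the values of Abcg5 and Abcg8 was not tested. Within each library the ratio of Abcg5 to Abcg8 counts was 0.932, 0.722 and 0.751 in healthy replicates 1, 2 and 3 and 1.37, 1.36 and 1.45 in senescent ones. The ratio did not overlap between the groups, although the levels of both genes did, and was 1.75-fold higher in senescent libraries (two-sided exact permutation p = 0.1, the smallest possible). Both ratios were chosen after the values had been seen, and adjusted over the 2 of them by Benjamini-Hochberg the exact p stayed at 0.1. The annotated exons of Abcg5 and Abcg8 share 82 bases on opposite strands.

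Levels between genes were compared per kilobase of exons, as FPKM. The length joins the exons of all annotated transcripts of a gene, so ranks between genes depend on the annotation. In healthy hepatocytes Insig1 stood highest of the 30 at 171 ± 34.5 FPKM (SD, n = 3), followed by Sc5d at 138 ± 28.9 FPKM and Ebp at 125 ± 14.9 FPKM, 3 genes whose neighbouring levels lay within their spread. Mylip and Ggps1 were lowest, at 0.960 ± 0.184 and 1.24 ± 0.148 FPKM. In senescent hepatocytes Insig2 stood highest at 149 ± 18.0 FPKM, above Acat2 at 66.1 ± 3.63 FPKM and Ebp at 48.6 ± 5.73 FPKM, and Insig1 was at 45.1 ± 7.65 FPKM. Hmgcs1 and Acat2 were level in healthy cells, at 105 ± 7.25 and 102 ± 18.3 FPKM, whereas in senescent cells Hmgcs1 was at 32.4 ± 1.84 FPKM. Srebf2 went from 11.4 ± 0.564 to 7.66 ± 0.268 FPKM and Abca1 from 10.5 ± 3.89 to 14.5 ± 2.07 FPKM, so that Abca1 was within its spread of Srebf2 in healthy cells and above it in senescent ones.

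**Figure D4:**
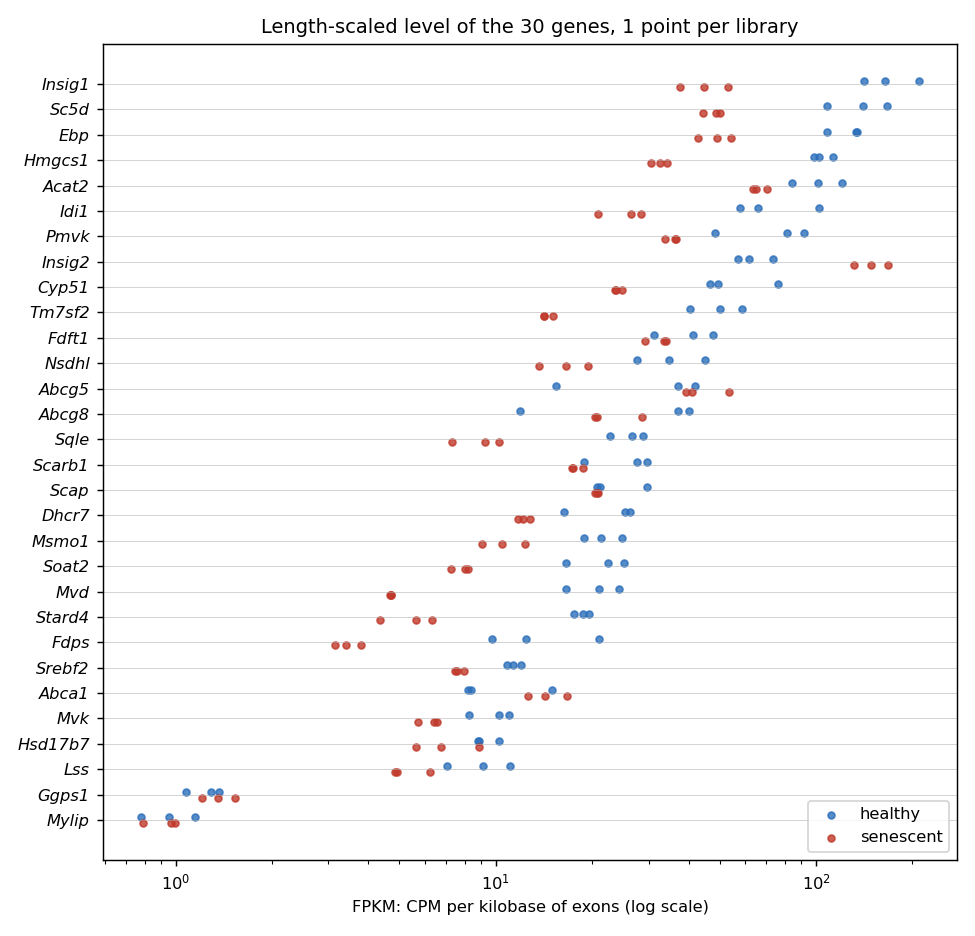
Each point is the FPKM of 1 gene in 1 library on a log axis, with genes ordered by their mean in the healthy libraries. Insig1 is highest in healthy and Insig2 in senescent libraries, and Ggps1 and Mylip are lowest in both groups.

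The libraries of a group differed from each other in a patterned way. Among the 21 genes that fell, healthy replicate 2 was the highest healthy library for 16 and healthy replicate 3 the lowest for 13. Over all tested genes those libraries were highest in 29.7% and lowest in 39.3%. The coefficient of variation, the SD over the mean of 3 libraries, had a median of 20.1% in healthy and 6.41% in senescent libraries for these 21 genes. It was smaller in senescent libraries for 18 of them, Sqle, Msmo1 and Stard4 being the exceptions, and for 60.4% of all genes called lower. For all tested genes with counts in both groups the medians were 15.7% and 11.3%. Genes read in the same libraries are not independent, and this spread was not tested.

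Pooled, genes around the pathway were called at shares nearer to those of all tested genes, but single lists differed. In 6 related lists together 16 of 63 genes (25.4%) were called lower and 9 (14.3%) higher, against 20.7% and 20.4% of all tested genes, at a median of -0.08. Of 9 genes of SREBP processing and sterol-regulated degradation 2 rose (22.2%, near the share of all genes) and 0 fell. The 2 became 4 with total library size, 3 without healthy replicate 3, and 1 at adjusted p under 0.01 or without healthy replicate 2 or any 1 of the senescent libraries. Mbtps2, the site-2 protease that releases SREBPs, rose from 6.21 ± 0.912 to 16.8 ± 2.71 CPM (edgeR adjusted p = 4.5e-04), and Faf2, which helps to extract degraded membrane proteins, rose from 52.3 ± 4.77 to 67.3 ± 2.02 CPM (edgeR adjusted p = 0.029). Mbtps1, the site-1 protease gene, had a log2 fold change of 0.02 ± 0.12 (edgeR adjusted p = 0.88). Of 10 genes of acetyl-CoA supply and partner proteins 4 fell (40%, above the 20.7% of all tested genes) and 0 rose. The acetyl-CoA synthetase gene Acss2, a known SREBP target, fell from 703 ± 188 to 136 ± 28.6 CPM (edgeR adjusted p = 1.5e-04), and Ebpl, a relative of Ebp, fell from 100.3 ± 10.99 to 41.4 ± 5.96 CPM (edgeR adjusted p = 3.1e-04).

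In the isoprenoid branch, which uses farnesyl and geranylgeranyl diphosphate, 1 of 11 genes rose and 1 fell, 9.09% each way and below both shares of all tested genes. With total library size 3 rose and 0 fell. The number that fell was 0 without senescent replicate 3 or at adjusted p under 0.01 and 2 without healthy replicate 3, and 2 rose without healthy replicate 1. Coq2, of coenzyme Q synthesis, rose from 29.3 ± 4.11 to 48.1 ± 0.858 CPM (edgeR adjusted p = 0.0027), and the prenyltransferase subunit gene Fnta fell from 32.7 ± 1.87 to 24.3 ± 1.67 CPM (edgeR adjusted p = 0.013). Of 7 genes of LXR and its targets 1 rose and 1 fell, 14.3% each way. With total library size 3 rose and 0 fell. The fall was lost without senescent replicate 2 or 3 and at adjusted p under 0.01, while 2 genes fell without healthy replicate 1 or 3 and 2 rose without senescent replicate 2 or healthy replicate 2. The phospholipid transfer protein gene Pltp rose from 70.5 ± 15.3 to 166 ± 39.1 CPM (edgeR adjusted p = 0.0026) and Lpcat3 fell from 97.0 ± 11.6 to 68.2 ± 5.86 CPM (edgeR adjusted p = 0.014). Nr1h3, the gene of the main liver LXR, had a log2 fold change of -0.29 ± 0.12 (edgeR adjusted p = 0.088).

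Of 10 genes of lipoprotein uptake and lysosomal sterol handling 4 fell (40%) and 2 rose (20%). Over all tested genes 20.7% fell and 20.4% rose. With total library size 2 of the 10 fell and 5 rose. The number that rose was 1 without senescent replicate 2, senescent replicate 3 or healthy replicate 1, and at adjusted p under 0.01. The hepatic lipase gene Lipc fell from 246 ± 14.8 to 87.8 ± 16.1 CPM (edgeR adjusted p = 1.7e-04) and the lysosomal sterol carrier gene Npc2 from 111 ± 18.8 to 66.4 ± 1.66 CPM (edgeR adjusted p = 0.0038). Scarb2, a lysosomal membrane protein gene, rose from 139 ± 16.8 to 202 ± 29.4 CPM (edgeR adjusted p = 0.021). Of 16 genes of sterol transfer, storage and breakdown 6 fell (37.5%) and 3 rose (18.8%). These became 4 and 6 with total library size and 4 and 1 without senescent replicate 3. The number that rose was also 1 at adjusted p under 0.01. Cyp27a1, which makes an oxysterol and acts in bile acid synthesis, fell from 603 ± 89.8 to 261 ± 11.3 CPM (edgeR adjusted p = 4.0e-04) and the lipase gene Ces1d, which has close paralogs, from 838 ± 169 to 312 ± 31.3 CPM (edgeR adjusted p = 4.6e-04). Gramd1c and Gramd1b, sterol transfer genes, rose from 29.5 ± 5.29 to 53.4 ± 4.42 CPM and from 0.293 ± 0.158 to 0.945 ± 0.273 CPM (edgeR adjusted p = 0.0027 and 0.022). With total library size the medians of 5 of these 6 lists were above 0, from 0.14 to 0.34. That of acetyl-CoA supply and partner proteins was -0.23. All tested genes had a median of 0.33 on that scale, where 4861 of the 12949 rose and 1285 fell.

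Most genes of fatty acid synthesis, a pathway that SREBP1 helps to govern, also fell. Of 25 such genes outside the 30, 20 (80%) were called lower and 0 higher, against 20.7% and 20.4% of all tested genes. Their median was -0.998, against -0.96 for the 30 cholesterol genes and -1.11 for their 19 enzymes. For the list with Insig2 included, total library size gave a median of -0.65, against 0.33 over all tested genes. On that scale 2 of its genes were called higher, against 1 with TMM. Acly, Acss2 and Srebf1 are also counted in the related lists above. The liver pyruvate kinase gene Pklr fell from 362 ± 41.3 to 58.2 ± 18.0 CPM (edgeR adjusted p = 7.0e-05) while Elovl5, which lengthens polyunsaturated fatty acids, fell from 558 ± 56.2 to 182 ± 20.3 CPM (edgeR adjusted p = 8.4e-05). Srebf1, which encodes SREBP1, had 355, 259 and 212 CPM in healthy and 383, 366 and 319 CPM in senescent libraries. Its groups overlapped, with a log2 fold change of 0.37 ± 0.19 (edgeR adjusted p = 0.15), while Srebf2 fell. A difference between the falls of the 2 pathways was not tested.

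**Figure D5:**
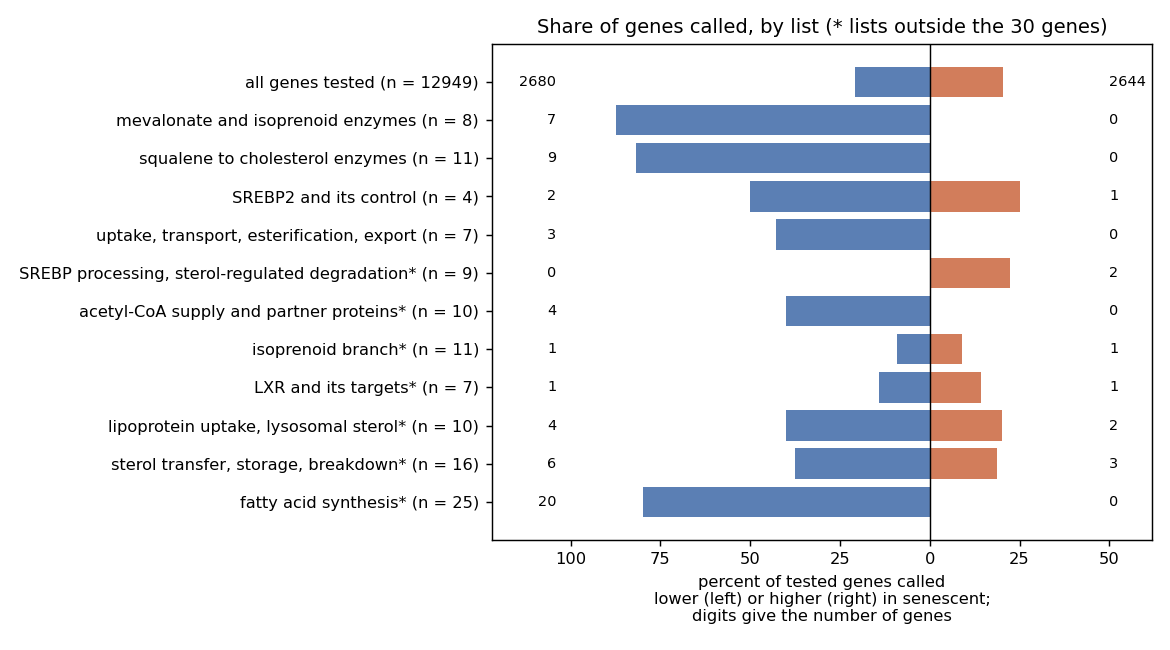
Bars give the percent of tested genes in each list that edgeR called lower (left) or higher (right) in senescent hepatocytes, with the number of genes beside them and all tested genes in the top bar. The 2 enzyme groups and fatty acid synthesis have the longest left bars, 7 of 8, 9 of 11 and 20 of 25 genes.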

How the data were processed

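The deposited table holds read counts per gene, whole numbers with no normalization, 1 column per library. Per the submitters' processing notes the authors worked on build GRCm38, aligned with STAR 2.7.1a, counted with featureCounts, and also used cutadapt 1.16, FastQC, MultiQC 1.3 and DESeq2 1.34.0. The sources used here give no annotation release, strand setting or filters. Per the labels' protocols, libraries were stranded and poly-A selected, from 500 ng of RNA and 10 PCR cycles. One column differs in a single letter from the code of healthy replicate 2 and was taken as that library. No pair of libraries looked like a copy: chi-square over degrees of freedom was at least 49.8.

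Counts were tested with edgeR 4.0.16 in R 4.3.3 (quasi-likelihood F test, two-sided; filterByExpr with minimum count 10 and total 15; TMM), without a covariate, and the code was tested on simulated data. GENCODE M21 gave coordinates and exon lengths, and symbols came from a separate reference list of gene names. FPKM is CPM per kilobase. The SE is the log2 fold change over the square root of F. Alternatives were DESeq2 1.42.0, limma-voom (limma 3.58.1), DESeq2-type size factors, total library size, removal of the 50 most abundant genes, no filter, a mean CPM of at least 1, adjusted p under 0.01, a replicate block and each library left out. Motifs were searched in RefSeq windows of GRCm38.p6. The 30 genes, the lists and the tests were chosen with earlier results of these data known. All 30 are named; values per library are given for the 3 with the smallest p among each enzyme group, for every gene of control or transport, and for those that rose or did not pass. From each other list the 2 risen and 2 fallen genes with the smallest p are named, except 1 gene that is not reported here; Hnf4a, Mbtps1, Nr1h3, Srebf1, Cyp7a1, Clec4f and Krt19 were added after their values were seen, as were the clock list, both ratios and the core motif.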

Additional observations from a re-analysis of the deposited data

How the results depend on the processing

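Of the 30 genes 19 kept their direction and their side of the threshold in all 15 alternatives, among them 16 of the 21 that fell. The number that fell was 16 to 21 over the 9 alternatives that keep every library, 16 with total library size. The number that rose was 2 with total library size and 1 in the other 8. The median log2 fold change of the 30 genes was -0.65 with total library size, and -0.96 to -0.93 in the other 8. With single libraries left out, 18 to 22 genes fell, 1 to 2 rose, and the median ran from -1.10 to -0.82; among the 85 genes of the related and fatty acid lists 35 to 48 were called, against 44. Over all tested genes 1489 fell without senescent replicate 3, against 2680, and 1498 fell and 1570 rose at adjusted p under 0.01. Values that changed sign were those of Scap with total library size (0.10) and of Mylip with total library size (0.24), without senescent replicate 3 (0.065) and without healthy replicate 3 (0.077), while Mylip was at -0.20 without healthy replicate 1; neither gene passed in any of them, and the cause was not tested. Deviations from the group mean correlated across genes at r = 0.23, -0.17 and -0.04 between same-numbered libraries, for replicates 1, 2 and 3. Between libraries of unlike number r ran from -0.33 to 0.38. So few values cannot show whether the numbers pair the samples. With the replicate number as a block 21 of the 30 genes were called lower and 1 higher, at a median of -0.93, and 2625 of all genes fell. Counts of 3 per library correspond to 0.0837 to 0.117 CPM, below the level of all 30 genes in every library.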
